A study of Mus musculus with 29 samples.

Results

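The 7 genes described here encode the inhibitors of cyclin-dependent kinases (CDKs), which are the Cip/Kip genes Cdkn1a (p21), Cdkn1b (p27) and Cdkn1c (p57) and the Ink4 genes Cdkn2a, Cdkn2b, Cdkn2c (p18) and Cdkn2d (p19Ink4d). They were taken by symbol from the RNA-seq count files of hematopoietic stem cells (HSCs), in which they are 7 of 55376 genes, and each of the 7 passed the filter on low counts that 33690 genes passed. The 19 libraries are labelled YWT for young wild type (4 libraries), OWT for old wild type (4), YKO for young Gadd45KO (4) and OKO for old Gadd45KO (7). The labels give young or old with no number of months. The study's library table gives C57BL/6J as the wild-type strain, its methods give The Jackson Laboratory as the source of the Gadd45b knockout line, and HSCs were sorted as Lin-cKit+Sca1+CD34-Flk2-CD150+ bone marrow cells. Nothing in the labels states how many animals went into each library, so the spread between libraries may be in part technical.

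Progression from G1 into S phase needs the kinases CDK4 and CDK6 with D cyclins and CDK2 with E cyclins, which phosphorylate the retinoblastoma protein and release E2F factors. Ink4 proteins bind CDK4 and CDK6, whereas Cip/Kip proteins bind cyclin-CDK complexes more broadly. Most adult HSCs rest in G0, and p57 and p27 are known to hold them there, while p21 is a classic target of p53 and p16Ink4a is known from cell senescence.

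In no group did the members stand at similar levels. Cdkn2d and Cdkn1c were the most abundant per length, Cdkn2c, Cdkn1b and Cdkn1a lay between, and Cdkn2b and Cdkn2a were close to the limit of detection. No member passed the test in any of the 4 comparisons of age and genotype. Among members with at least 84 reads in each library, the 95% intervals that left out 0 were those of Cdkn1a by age and of Cdkn1c between the old groups. Cdkn1a stood at 5.67 CPM in YWT and 10.1 CPM in OWT and at 6.47 CPM in YKO and 11.1 CPM in OKO, and Cdkn1c at 92.9 CPM in OWT and 56.7 CPM in OKO. CPM is the read count of a gene relative to the sequencing depth of its library, here after scaling by the TMM factors of edgeR.

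Library totals ran from 22197555 to 77970627 reads on genes, and TMM factors from 0.692 to 1.22 outside the libraries OKO1, OKO2 and OKO3, in which they were 1.24 to 1.83. On the first principal component, with 38.0% of the variance, OKO1 (-351.7), OKO2 (-136.4), OKO3 (-123.5), YWT4 (-89.7) and YKO2 (-87.6) had the lowest values. Titles with the prefix IB15 belong to the 4 OWT libraries and to OKO4 to OKO7, and the other 11 libraries lack it, so old age in wild type and this set of titles cannot be told apart. The study's library table likewise puts OKO1 to OKO3 in the batch of the young libraries and OKO4 to OKO7 in another. Reads on Gadd45b itself, the gene knocked out, came to 7.34 to 17.5 CPM in YWT, 10.1 to 15.5 CPM in OWT, 5.14 to 14.3 CPM in the libraries labelled YKO and 2.84 to 6.94 CPM in those labelled OKO. The YKO and YWT ranges thus overlapped, a gene-level count does not show which part is deleted, and what follows takes each library by its label. All 10 HSC markers exceeded 1 CPM in each library, with a summed level of 2064 to 4354 CPM. So did 6 of 8 plasma cell, 5 of 10 B cell and 5 of 8 erythroid markers, so this check does not exclude RNA of other cells. Plasma cell markers summed to 27068 CPM in YWT2, 13792 CPM in YKO2 and 8911 CPM in YKO1, and to 126 to 4740 CPM in the others. In YWT2, YKO2 and YKO1 the HSC markers summed to 3115, 2064 and 2197 CPM. The labels call every library female, but Y-linked genes summed to more than 1 CPM in 7 of the 19.

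**Figure D1:**
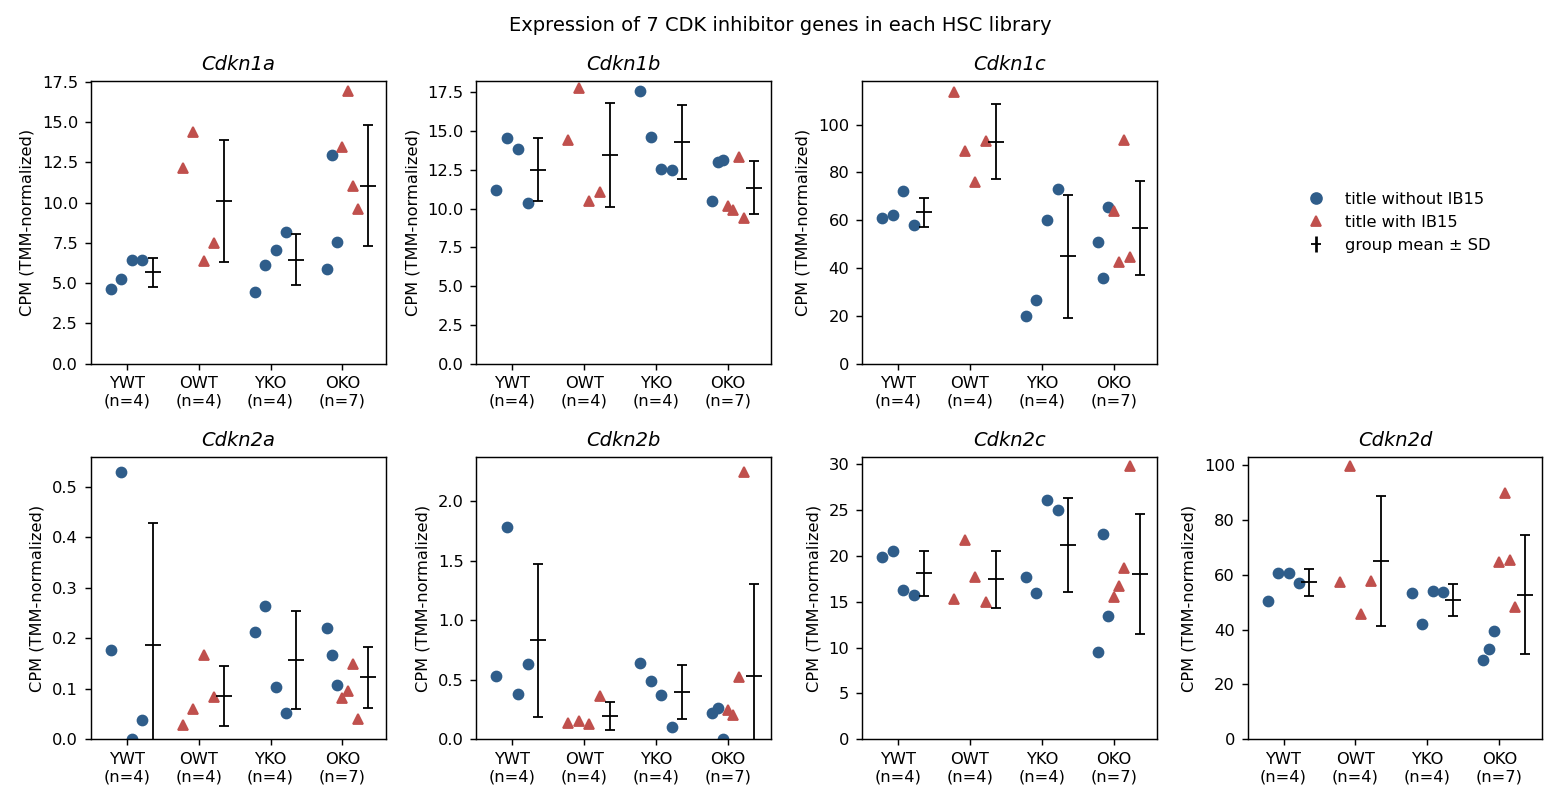
Expression of the 7 CDK inhibitor genes in each library, in TMM-normalized CPM on a linear axis for each gene, with the group mean and SD beside the points and the title set as symbol (SD bars that would pass 0 end at the axis). Old libraries of both genotypes reach the highest Cdkn1a values, the 4 OWT libraries lie above the 4 YWT libraries for Cdkn1c, and Cdkn2a and Cdkn2b reach no more than 0.531 and 2.25 CPM.

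Levels were compared between genes as CPM per kilobase of exon, over all 19 libraries. Cdkn2d, an inhibitor of CDK4 and CDK6, had the highest level at 35.5 ± 10.8 (SD, n = 19), followed by Cdkn1c at 31.0 ± 11.7 (SD, n = 19). These 2 did not separate, since Cdkn2d lay above Cdkn1c in 12 of 19 libraries. Cdkn2c, also an Ink4 inhibitor, reached 6.91 ± 1.80 (SD, n = 19) and lay below Cdkn1c in each of the 19. Cdkn1b at 2.78 ± 0.536 and Cdkn1a at 2.47 ± 1.03 followed (SD, n = 19), with Cdkn1b above Cdkn1a in 12 of 19 libraries, so that their order does not hold beyond the spread. With the longest transcript as length Cdkn1a came to 4.21 and passed Cdkn1b. Cdkn2b, with 0.357 ± 0.412, and Cdkn2a, with 0.116 ± 0.103, were lowest (SD, n = 19), and Cdkn1a lay above both in every library.

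**Figure D2:**
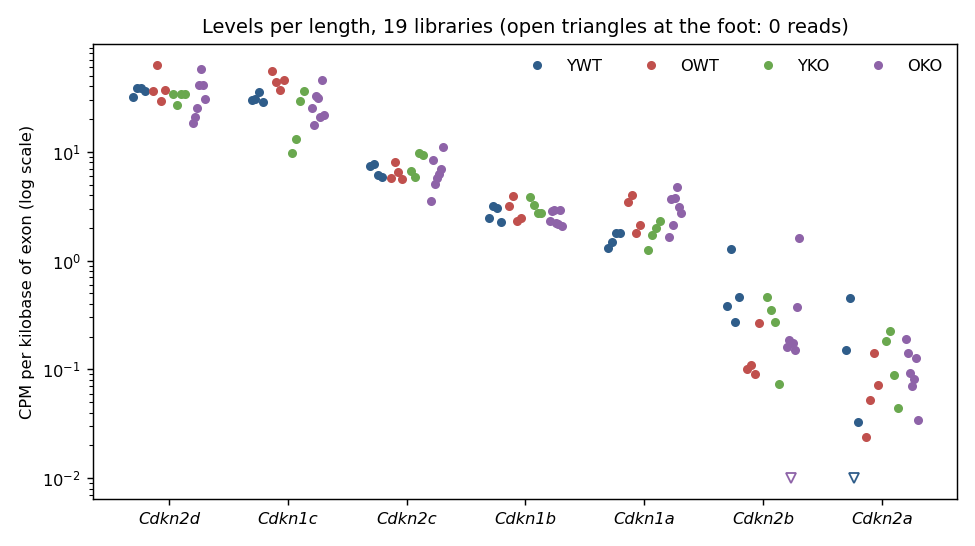
CPM per kilobase of exon on a log axis for each of the 7 genes in order of their mean, with 1 point per library and 1 colour per group, and libraries with 0 reads as open triangles at the foot. The means fall from 35.5 for Cdkn2d to 0.116 for Cdkn2a, and the clouds of Cdkn2d and Cdkn1c, and of Cdkn1b and Cdkn1a, overlap.

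Cdkn1a (ENSMUSG00000023067.14) lies on the plus strand of chromosome 17 of mm10, from 29090976 to 29100727. A promoter window, 1 of 2 annotated for the gene, is shown because Cdkn1a is the member with the largest difference by age among those with at least 84 reads in each library. The 250 bases before the start at 29093769, chr17:29093519-29093768 on the plus strand, are given 5′ to 3′ from RefSeq on GRCm38, with GC boxes (GGGCGG on either strand) in capitals.
Cdkn1a: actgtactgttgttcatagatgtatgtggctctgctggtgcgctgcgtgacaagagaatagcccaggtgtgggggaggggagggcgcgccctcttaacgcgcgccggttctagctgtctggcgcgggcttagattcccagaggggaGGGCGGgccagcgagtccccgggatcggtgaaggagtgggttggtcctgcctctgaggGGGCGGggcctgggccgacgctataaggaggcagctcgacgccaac
This stretch holds 2 GC boxes and 19 CpG dinucleotides, whereas 32.7% of 32851 such windows of all genes hold a GC box and their median is 6 CpG. The other window, chr17:29090729-29090978 before the start at 29090979, holds 2 CpG, more than 18.8% of windows, and no GC box. The capitals mark letters only, and no binding was measured. A further annotated transcript on the other strand, AC167363.2, shares 7.68% of the exon bases of Cdkn1a.

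In YWT, Cdkn1a measured 4.63, 5.23, 6.42 and 6.41 CPM in libraries 1 to 4. In OWT it measured 12.2, 14.4, 6.38 and 7.47 CPM. Thus OWT1, OWT2 and OWT4 lay above every YWT library and OWT3 among them. In YKO it measured 4.47, 6.13, 7.05 and 8.21 CPM. In OKO the lowest library had 5.86, the median 11.03 and the highest 16.9 CPM, with 5 of 7 above every YKO library. The OKO libraries with the IB15 prefix had 9.63 to 16.9 CPM and those without it 5.86 to 13.0 CPM. By the library total these were 7.64 to 14.5 and 10.7 to 16.1 CPM.

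Cdkn1b (ENSMUSG00000003031.14), which encodes p27, a brake on CDK2, lies on the plus strand of chromosome 6 from 134920401 to 134925513. On the TMM scale its highest library was 1.89-fold above the lowest, and by the library total 2.55-fold, where Cdkn2c spanned 2.00-fold and Cdkn2d 2.36-fold. The young means were 12.5 ± 2.03 CPM in YWT and 14.3 ± 2.39 CPM in YKO, and the old means 13.5 ± 3.38 CPM in OWT and 11.4 ± 1.72 CPM in OKO (SD, n = 4, and n = 7 for OKO). The highest values, 17.8 CPM in OWT2 and 17.6 CPM in YKO1, belonged to different groups, and each pair of groups overlapped.

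Cdkn1c (ENSMUSG00000037664.13), the imprinted gene of p57, lies on the minus strand of chromosome 7 from 143458339 to 143461050. It had 60.9, 62.1, 72.2 and 58.1 CPM in YWT1 to YWT4. In OWT it had 113.5, 88.8, 75.9 and 93.3 CPM, each above all 4 YWT libraries. The YKO libraries divided, with 19.96 and 26.5 CPM in YKO1 and YKO2 and 60.2 and 73.0 CPM in YKO3 and YKO4. YKO3 and YKO4 also carried Y-linked reads and YKO1 and YKO2 did not, and with the Y-linked reads as a covariate the log2 fold change of Cdkn1c in YKO vs YWT was -0.55 in place of -0.49. Plasma cell markers divided these libraries too, with 8911 and 13792 CPM in YKO1 and YKO2 and 760 and 824 CPM in YKO3 and YKO4. B cell markers summed to 872, 1580, 258 and 203 CPM in YKO1 to YKO4, and T cell markers to 167, 124, 43.6 and 34.6 CPM. Whether any of these differences bears on Cdkn1c was not tested. In OKO the lowest library had 35.7, the median 51.1 and the highest 93.7 CPM. Of the 7 OKO libraries 6 lay below every OWT library, and OKO6 reached the OWT range.

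Reads on Cdkn1c could not be told apart from those of an antisense gene. Gm44732 (ENSMUSG00000108934.1, plus strand, 143459749 to 143460640) lies inside Cdkn1c, and 98.4% of its exon bases are also exon of Cdkn1c, where they make up 30.7%. Between 0.417 and 0.579 reads were counted on Gm44732 per read on Cdkn1c, with a median of 0.488 over 19 libraries. Whether the counting used strand is not given in the sources used here. With the counts of both genes summed, the log2 fold change of Cdkn1c was 0.55 for OWT vs YWT and -0.70 for OKO vs OWT, near the values of Cdkn1c alone given with each comparison.

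**Figure D3:**
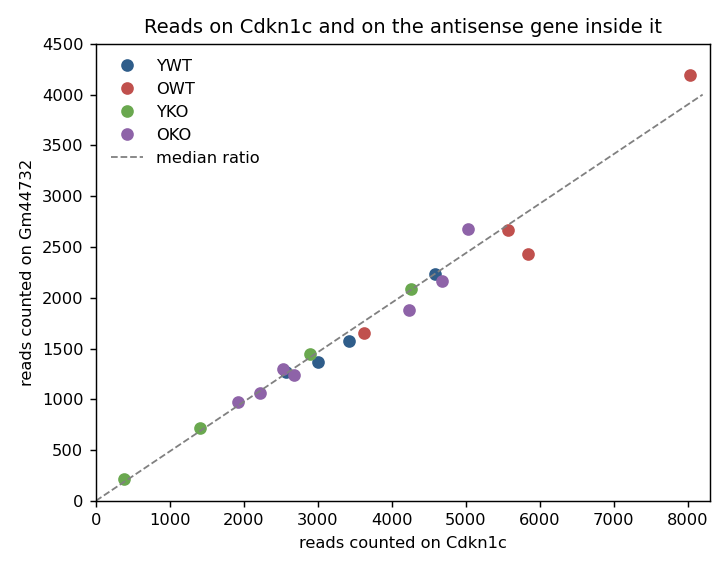
Reads counted on Cdkn1c (x axis) against reads counted on Gm44732 (y axis), raw counts on linear axes, 1 point per library coloured by group. The 19 libraries lie along the dashed line of the median ratio, 0.488, with ratios from 0.417 to 0.579.

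Cdkn2a (ENSMUSG00000044303.6) lies on the minus strand of chromosome 4 from 89274471 to 89294653. A single row of counts covers 2 transcripts with their own first exons, for p16Ink4a, a CDK4 and CDK6 inhibitor, and for p19Arf, which stabilizes p53. Both promoters are shown since the counts cannot be split between them. The lines below give the 250 bases before the start at 89282192, chr4:89282193-89282442, and the 216 bases before the first annotated exon base of the other transcript, chr4:89294654-89294869, both on the minus strand, with GC boxes in capitals as above.
Cdkn2a inner start: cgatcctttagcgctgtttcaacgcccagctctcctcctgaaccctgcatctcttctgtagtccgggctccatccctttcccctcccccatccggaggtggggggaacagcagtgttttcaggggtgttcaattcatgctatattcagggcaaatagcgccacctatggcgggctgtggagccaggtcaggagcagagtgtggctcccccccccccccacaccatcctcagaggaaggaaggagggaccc
Cdkn2a outer start: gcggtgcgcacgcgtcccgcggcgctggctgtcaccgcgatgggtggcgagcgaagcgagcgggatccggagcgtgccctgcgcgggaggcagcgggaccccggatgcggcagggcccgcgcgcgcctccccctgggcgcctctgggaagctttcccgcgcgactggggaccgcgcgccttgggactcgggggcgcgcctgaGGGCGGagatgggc
The inner stretch has 7 CpG and no GC box. The outer window of 250 bases, whose last 34 bases are exon and not printed, has 40 CpG, more than 98.7% of all windows. Cdkn2a had 0 to 22 reads per library, 10, 22, 0 and 2 in YWT, 2, 4, 8 and 5 in OWT, 4, 14, 5 and 3 in YKO, and 2 to 11 with a median of 7 in OKO. In 5 of 19 libraries it had 3 reads or fewer, and the count of 0 in YWT3 allows up to 0.0473 CPM, by counting error only. Neither age nor genotype separated the groups.

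Cdkn2b (ENSMUSG00000073802.5), the p15 gene next to Cdkn2a, lies on the minus strand of chromosome 4 from 89306299 to 89311039. It had 30, 74, 24 and 33 reads in YWT and 10, 10, 6 and 22 in OWT. In CPM these were 0.378 to 1.79 in YWT and 0.126 to 0.369 in OWT, so that each OWT library lay below every YWT library, also when scaled by the library total alone. The YKO libraries had 12, 26, 18 and 6 reads, and in OKO the count ran from 0 in OKO3 to 112 in OKO7, with a median of 14. OKO7 stood alone at 2.25 CPM, while the other two highest OKO libraries had 0.522 and 0.260 CPM. The 0 in OKO3 allows up to 0.0464 CPM.

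Cdkn2c (ENSMUSG00000028551.14), on the minus strand of chromosome 4 from 109660876 to 109667189, had 18.1 ± 2.47 CPM in YWT, 17.4 ± 3.12 in OWT and 21.2 ± 5.10 in YKO (SD, n = 4 each), and 18.0 ± 6.57 in OKO (SD, n = 7). The OKO libraries spanned both ends of the range, from 9.53 CPM in OKO1 to 29.8 CPM in OKO7. Each pair of groups overlapped.

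Cdkn2d (ENSMUSG00000096472.2), on the minus strand of chromosome 9 from 21288410 to 21291407, had 50.5, 60.7, 60.4 and 56.9 CPM in YWT. In OWT it had 57.2, 99.4, 45.6 and 57.7 CPM, and in YKO 53.4, 41.9, 53.9 and 53.7 CPM. Within OKO the libraries without the IB15 prefix had 29.0, 33.1 and 39.4 CPM, and those with it 64.5, 89.7, 65.2 and 48.2 CPM, with no overlap. By the library total alone this gap was absent, since the former had 41.1 to 55.6 CPM and the latter 38.2 to 77.0 CPM. On that scale the 2 title sets of OKO did not overlap for Cdkn1b, with 16.2 to 19.1 CPM without the prefix and 7.48 to 13.1 CPM with it. Nor did they for the scarce Cdkn2a, with 0.153 to 0.403 and 0.0319 to 0.147 CPM. The share of all genes with such gaps was not counted.

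Aging of wild-type HSCs was compared as OWT vs YWT. For Cdkn1a the log2 fold change was 0.83 (SE 0.32, 95% interval 0.17 to 1.49), with an edgeR quasi-likelihood p of 0.0161 and an adjusted p of 0.971 over all genes. For Cdkn1c it was 0.55 (SE 0.33, 95% interval -0.13 to 1.24, adjusted p = 1.00 by edgeR). For Cdkn2b it was -2.06 (SE 1.01, 95% interval -4.16 to 0.03), and -1.38 without YWT2. Cdkn1b had 0.11 (SE 0.22), Cdkn2a -1.11 (SE 1.06), Cdkn2c -0.05 (SE 0.28) and Cdkn2d 0.19 (SE 0.29). Calls needed both an adjusted p below 0.05 and a change beyond 1.5-fold, which 0 of 7 members reached, against 0.00297% of the genes tested. At an unadjusted edgeR p under 0.05 stood 1 member, against 4.38% of all genes, and DESeq2 called 0 members, against 0.251% of all genes it tested. The 4 old wild-type libraries were separate from the 4 young ones upward for 1 member, Cdkn1c, and downward for 1, Cdkn2b, where 2.24% and 1.9% of all genes did so. By the library total alone Cdkn1c no longer separated, with 3 of 4 OWT libraries above. Above 0 lay 4 of 7 members, against 45.7% of all genes. With the title prefix as a covariate the log2 fold change of Cdkn1a was 0.29, that of Cdkn1c 0.29, that of Cdkn2b -4.38 and that of Cdkn2c -0.47. Only OKO holds both title sets, so this covariate was set by OKO4 to OKO7 against OKO1 to OKO3. These values carry that OKO difference into wild type and do not separate age from title set. Granulocyte markers summed to 210.2 to 401.9 CPM in YWT and 604.6 to 894.9 CPM in OWT (8 of 8 above 0, median log2 fold change 1.74, 6 at an unadjusted edgeR p under 0.05). Erythroid markers summed to 624.5 to 2045 and 143.3 to 925.8 CPM (8 of 8 below 0, median -1.11) and B cell markers to 228.7 to 730.5 and 75.8 to 265.8 CPM (8 of 10 below 0, median -1.69). None of these markers was called by edgeR, and their part in the values was not tested. In bulk libraries fewer cells of a type and less RNA per cell cannot be told apart.

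The genotype comparison in young HSCs, YKO vs YWT, lies within 1 set of titles. Its log2 fold changes were 0.19 for Cdkn1a (SE 0.32), 0.19 for Cdkn1b (SE 0.22), -0.49 for Cdkn1c (SE 0.33), 0.23 for Cdkn2c (SE 0.28) and -0.17 for Cdkn2d (SE 0.29). The intervals of the 5 did not exclude 0, and the widest, for Cdkn1c, ran from -1.18 to 0.19. The scarce Cdkn2a and Cdkn2b had -0.24 (SE 1.05) and -1.07 (SE 0.99), the latter -0.42 without YWT2. The edgeR test called 0 of 7 members, against 0.0267% of all genes, and 0 stood at an unadjusted p under 0.05, against 4.59%. DESeq2 called 0, against 0.27% of all genes it tested. Erythroid markers summed to 1573 to 4475 CPM in YKO and 624.5 to 2045 CPM in YWT (median log2 fold change 1.77), and 1 of them, Alas2, was called. T cell markers summed to 34.6 to 166.9 CPM in YKO and 20.9 to 38.6 CPM in YWT (8 of 8 above 0, median 2.14), and B cell markers to 203.1 to 1580 and 228.7 to 730.5 CPM (10 of 10 above 0, median 0.94). Their part in these values was not tested.

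Aging of knockout HSCs was compared as OKO vs YKO. The log2 fold change of Cdkn1a was 0.77 (SE 0.29, 95% interval 0.17 to 1.37). Its edgeR p was 0.0141 unadjusted and 0.188 adjusted over all genes, and the adjusted p ran from 0.0116 to 0.320 over the settings tried. Cdkn1b had -0.33 (SE 0.20), Cdkn1c 0.34 (SE 0.30), Cdkn2c -0.23 (SE 0.24) and Cdkn2d 0.06 (SE 0.26), and Cdkn2a had -0.33 (SE 0.93) and Cdkn2b 0.42 (SE 0.88). By the edgeR test 0 of 7 members were called, against 1.29% of all genes, and 1 stood at an unadjusted p under 0.05, against 15.8%. The median log2 fold change of all genes was 0.23 here and ran from -0.01 to 0.63 over the settings tried, and relative to it Cdkn1a stood at 0.54, with a range of -0.04 to 1.01. Cdkn1b stood at -0.57 (-0.76 to -0.10), Cdkn2a at -0.57 (-0.75 to -0.32) and Cdkn2c at -0.47 (-0.97 to -0.04) relative to it. The ranges of Cdkn1c (0.10), Cdkn2b (0.18) and Cdkn2d (-0.18) spanned 0. Cdkn1a passed the threshold in 3 alternatives, at 0.82 with DESeq2 (adjusted p = 0.0283), at 0.87 with upper-quartile factors (edgeR adjusted p = 0.0429) and at 0.95 when genes below a mean of 5 CPM were left out (edgeR adjusted p = 0.0116). Those settings called 4.02%, 3.2% and 12.1% of all genes they tested. Against the OKO libraries without the prefix, which share the title set of YKO, its log2 fold change was 0.50, and against those with it 1.00. B cell markers summed to 203.1 to 1580 CPM in YKO and 31.1 to 263.1 CPM in OKO, T cell markers to 34.6 to 166.9 and 9.32 to 49.5 CPM, and erythroid markers to 1573 to 4475 and 34.2 to 2533 CPM. Of these markers 5 of 10, 4 of 8 and 4 of 8 were called lower by edgeR, and their part in the values was not tested.

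**Figure D4:**
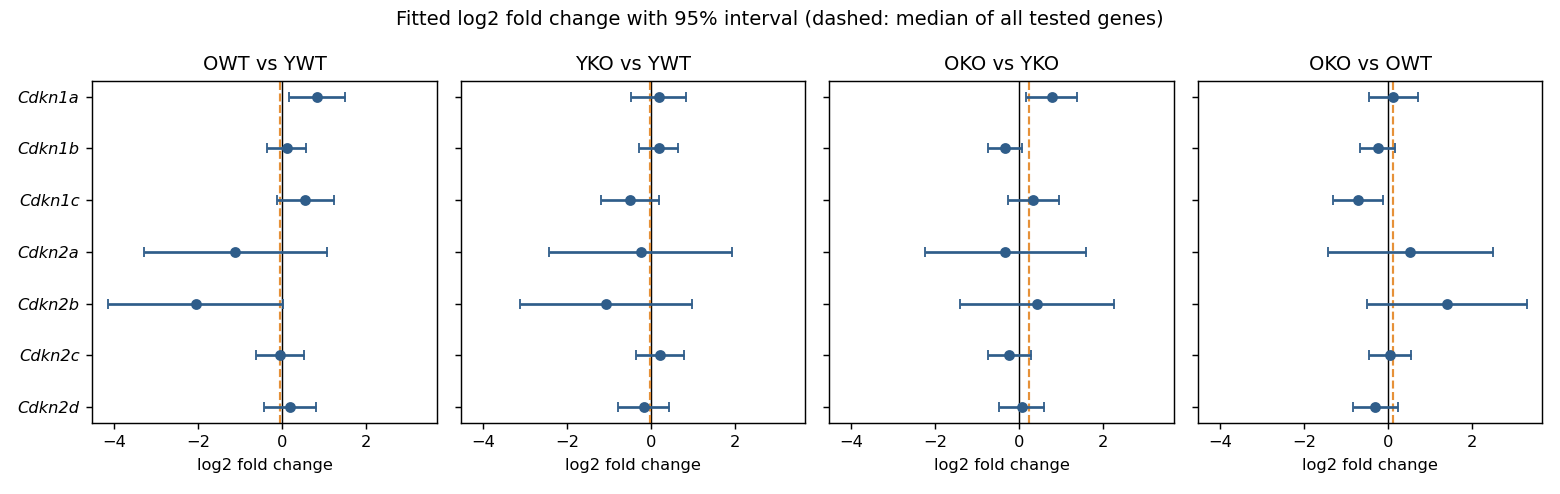
Log2 fold change of each of the 7 genes (points) with its 95% interval (bars) in the 4 comparisons, and the median of all tested genes as a dashed line. Only Cdkn1a in the 2 age comparisons (0.83 in WT, 0.77 in KO) and Cdkn1c in OKO vs OWT (-0.71) have intervals that leave out 0, and Cdkn2a and Cdkn2b have the widest.

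The genotype comparison in old HSCs was OKO vs OWT. The log2 fold change of Cdkn1c was -0.71 (SE 0.29, 95% interval -1.31 to -0.12). Its edgeR p was 0.0214 unadjusted and 0.592 adjusted. By the library total in place of TMM it was -0.39, and 4 of 7 rather than 6 of 7 OKO libraries lay below every OWT library. Within the IB15 titles alone it was -0.58, and against the 3 OKO libraries without the prefix -0.83. Cdkn1a had 0.13 (SE 0.28), Cdkn1b -0.25 (SE 0.20), Cdkn2c 0.05 (SE 0.24), Cdkn2d -0.30 (SE 0.26), Cdkn2a 0.54 (SE 0.95) and Cdkn2b 1.41 (SE 0.92), which was 0.29 without OKO7. The edgeR test called 0 of 7 members, against 0.0327% of all genes, and 1 stood at an unadjusted p under 0.05, against 8.14%. DESeq2 called 0, against 0.194% of all genes it tested. With only OKO1, OKO2 and OKO3 as the old knockouts Cdkn2d passed, at -0.90 (edgeR adjusted p = 0.0292), where 12.4% of all genes tested were called, and with only OKO4 to OKO7 it was 0.07. Granulocyte markers summed to 604.6 to 894.9 CPM in OWT and 202.3 to 604.6 CPM in OKO (8 of 8 below 0, median log2 fold change -1.76, 7 at an unadjusted edgeR p under 0.05, 0 called), and megakaryocyte markers to 632.6 to 2020 and 450.5 to 1332 CPM (6 of 6 below 0, median -0.73). HSC markers summed to 2850 to 4354 and 2161 to 3835 CPM (10 of 10 below 0, median -0.39, 0 called). In the other comparisons the HSC markers lay above 0 in 10 of 10 for OWT vs YWT (median 0.50). They lay below 0 in 9 of 10 for YKO vs YWT (median -0.39) and above 0 in 9 of 10 for OKO vs YKO (median 0.55). The part of all these markers in the values of the members was not tested.

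**Figure D5:**
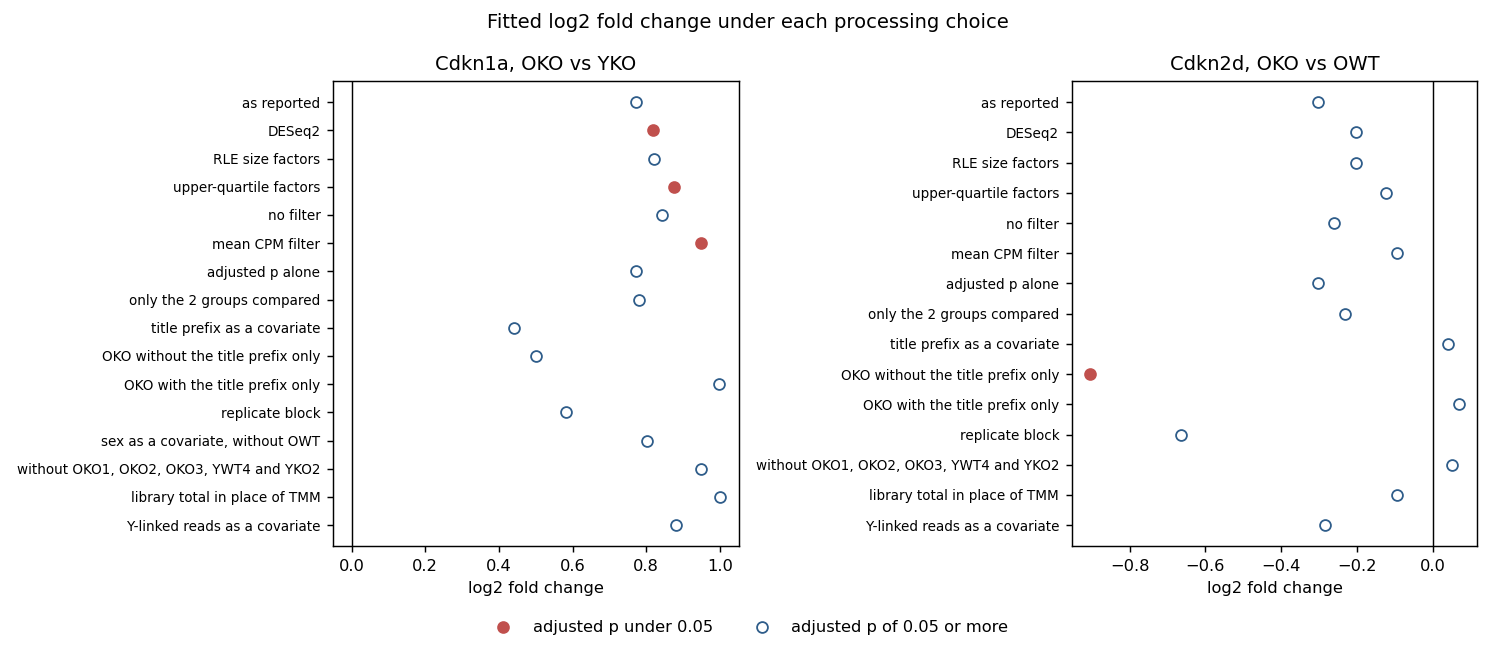
Log2 fold change (x axis) of Cdkn1a in OKO vs YKO and of Cdkn2d in OKO vs OWT under each processing choice (rows), filled where the adjusted p was under 0.05. Cdkn1a stays above 0 throughout, between 0.44 and 1.00, whereas Cdkn2d runs from -0.90 to 0.07.

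The genotype by age interaction asks whether the change with age differs between KO and WT. For Cdkn1a it was -0.06 (SE 0.42, 95% interval -0.94 to 0.82), so that a difference of up to about that size in either direction was not excluded. For Cdkn1b it was -0.44, with -0.49 to -0.24 over the fits without 1 library and -0.52 to -0.04 over the other settings. Cdkn2a had 0.78, Cdkn2c -0.18 and Cdkn2d -0.13. For Cdkn1c it was -0.22 (SE 0.44) and for Cdkn2b 2.48 (SE 1.34, edgeR adjusted p = 0.811). The latter was 1.37 without OKO7, 1.81 without YWT2, 0.82 with only the OKO libraries without the prefix and 0.47 with the replicate block. That block is a term for each replicate number. OKO5, OKO6 and OKO7 are alone in their numbers, so with the block OKO rests on OKO1 to OKO4. The edgeR test called 0 members and 0 of 33690 genes, with 0 members and 4.62% of all genes at an unadjusted p under 0.05. DESeq2 called 0 members, against 0.0152% of all genes it tested.

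Genes around the inhibitors were followed in 5 lists, whose members all passed the filter. The 19 CDK-Rb partners, which are the cyclins, kinases, Rb proteins and E2F factors the inhibitors act on, had a median log2 fold change of -0.16, 0.19, -0.45 and -0.17 for age in WT, genotype in young, age in KO and genotype in old HSCs, where all genes had -0.05, -0.02, 0.23 and 0.12. Of these partners 1 was called lower in OKO vs YKO, where 0.692% of all genes were, namely E2f2, an E2F activator, at -1.39 (SE 0.34, edgeR adjusted p = 0.0449). E2f2 had 26.2, 31.3, 13.0 and 14.6 CPM in YKO and 3.10 to 15.6 CPM in OKO, where only OKO7 lay within the YKO range. This call was lost in 13 of the 19 fits without 1 library, those without any 1 of YWT1 to YWT4, OWT2, OWT4, YKO1, YKO2, OKO1 and OKO3 to OKO6, in which E2f2 stood at -1.12 to -1.44 (edgeR adjusted p from 0.0509 to 0.193). Without OKO7 4 partners were called. Over the 19 fits without 1 library the count of all genes called in OKO vs YKO ran from 102 to 1822, against 434 as reported. No partner was called in the other 3 comparisons by the edgeR model of all 19 libraries or by DESeq2, though 2 were in OKO vs OWT with only the OKO libraries without the prefix, where 12.4% of all genes were. The largest values were 1.05 for E2f2 in YKO vs YWT (SE 0.40), -0.74 for Ccnd2 in OKO vs OWT (SE 0.24) and -0.56 for Ccne2 in OWT vs YWT (SE 0.42).

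Among 20 regulators of the inhibitors, Myc, a driver of growth that represses Cdkn1a and Cdkn2b, was called lower in OKO vs YKO at -1.09 (SE 0.27, edgeR adjusted p = 0.0449). It had 502.3 to 766.7 CPM in YKO and 134.9 to 485.7 CPM in OKO, with no overlap, where 1.48% of all genes were lower with no overlap. The call of Myc was lost in 11 of the 19 fits without 1 library, those without any 1 of YWT2 to YWT4, OWT2, YKO1, YKO3, YKO4 and OKO2 to OKO5, in which Myc stood at -0.96 to -1.14 (edgeR adjusted p up to 0.190). Without OKO7 3 regulators were called, where the fits without 1 library called 102 to 1822 genes in all. The call of E2f2 and that of Myc were both lost with only the 2 groups compared, with the study's sexes as a covariate, when OKO was limited to the IB15 titles, and when OKO1, OKO2, OKO3, YWT4 and YKO2 were left out, and that of E2f2 by the library total (edgeR adjusted p = 0.0562). With the OKO libraries without the prefix alone, 8 partners and 5 regulators were called, where 17.9% of all genes tested were, and with the prefix as a covariate 9 and 4, where 19.1% were. DESeq2 called 1 partner and 3 regulators in OKO vs YKO, where it called 4.02% of all genes. With only the OKO libraries without the prefix 2 regulators were also called in OKO vs OWT and 1 in the interaction, where 12.4% and 0.464% of all genes were. The list of regulators had a median of -0.09 in OKO vs YKO, with 7 values above 0 and 13 below.

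Of the other 12 genes of the p53 response 0 were called in any comparison by the edgeR model of all 19 libraries. In OKO vs YKO 1 was called with DESeq2 (4.02% of all genes called), the mean CPM filter (12.1%) and the prefix as a covariate (19.1%). Likewise 1 was called with the replicate block (5.27%) and with the OKO libraries without the prefix (17.9%). With the last of these 1 was also called in OKO vs OWT (12.4%). The medians of the 12 genes were -0.15, -0.05, -0.35 and -0.09 for the 4 comparisons in the same order. In OKO vs YKO, where Cdkn1a stood at 0.77, Phlda3 had -0.95 (SE 0.33, edgeR adjusted p = 0.152) and Pmaip1 -0.87 (SE 0.62), with 3 of the 12 above 0. The 8 genes of the imprinted cluster of Cdkn1c had 0 calls by the edgeR model of all 19 libraries and by DESeq2. With the prefix as a covariate 3 were called in OKO vs YKO, where 19.1% of all genes were. With only the OKO libraries without the prefix 3 were called in OKO vs YKO, 3 in OKO vs OWT and 1 in the interaction. In those fits 17.9%, 12.4% and 0.464% of all genes were called. The medians of the 8 genes were -0.05, -0.11, 0.18 and -0.03. Kcnq1, a channel gene beside Cdkn1c, had 2.09 in OKO vs OWT (SE 0.86, edgeR adjusted p = 0.592).

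The 15 proliferation markers lay below 0 in OWT vs YWT (15 of 15, median -0.38), above 0 in YKO vs YWT (15 of 15, median 0.51) and below 0 in OKO vs YKO (15 of 15, median -1.01), where 45.7%, 48.1% and 61.8% of all genes lay above 0. These 3 directions held for all 15 genes under each scaling tried. In OKO vs OWT they did not, with 4 of 15 above 0 (median -0.11) and 9 of 15 by the library total (median 0.0087). By the edgeR model of all 19 libraries 0 of them were called in any comparison. In OKO vs YKO this count was 10 without OKO7 and 1 without OKO2, where the fits without 1 library called 102 to 1822 genes in all. It was 11 with the prefix as a covariate and with only the OKO libraries without it, 7 with the replicate block and 4 with the mean CPM filter. Those settings called 19.1%, 17.9%, 5.27% and 12.1% of all genes. In OKO vs YKO 12 of 15 stood at an unadjusted edgeR p under 0.05, all lower, against 7.93% of all genes, and DESeq2 called 6, where it called 4.02% of all genes. Mki67, which marks cycling cells, had -1.35 there (SE 0.45, edgeR adjusted p = 0.136). Their summed level was 2985 to 4655 CPM in YKO and 626.3 to 3899 CPM in OKO, and 2399 to 3726 CPM in YWT and 1814 to 2738 CPM in OWT.

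The genes most like each member were sought among genes with a mean of at least 5 CPM, by the Pearson correlation of log2(CPM + 1) over the 19 libraries, which differ in depth, age and title set. For Cdkn2d the likest genes included Tmem106c (r = 0.95, Spearman 0.90) and Cd9 (0.94 and 0.92). Cdkn2c was most like Coq7 (r = 0.94, Spearman 0.90), Itpa (0.93 and 0.90) and Mrps5 (0.93 and 0.89). Cdkn1a was most like B3gnt3 (r = 0.91, Spearman 0.91), Nxpe5 (0.90 and 0.88) and Col18a1 (0.90 and 0.86). For Cdkn1c the closest was Gm44732 (r = 0.99, Spearman 0.97), the antisense gene that shares its exon, before Flywch2 (0.90 and 0.76) and Myct1 (0.90 and 0.84). Cdkn1b reached no more than 0.71 (Spearman 0.62), with Zfp318, followed by Gm26773 (0.68 and 0.45) and Wipf1 (0.68 and 0.61). For the scarce Cdkn2a the closest were Ighv3-2 (0.76, Spearman 0.16), Igkv4-73 (0.75 and 0.26) and Reln (0.73 and 0.60), and for Cdkn2b Iglj1 (0.81 and 0.70), Selenot (0.80 and 0.61) and 4930524O07Rik (0.77 and 0.61). In these 2 genes the values rest on few reads. Ighv3-2, Igkv4-73 and Iglj1 are immunoglobulin genes, and YWT2, with the most Cdkn2a reads, also had the highest sum of plasma cell markers. Whether this bears on the correlations was not tested.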

How the data were processed

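RNA-seq of sorted HSCs was analysed in 19 libraries made with the SMART-Seq v4 kit, and the WGBS samples of the series were not analysed here. According to the methods, reads were trimmed with Trim Galore 0.4.3 and cutadapt, aligned to mm10 by STAR using GENCODE M22, and counted per gene with featureCounts. The authors deposited raw counts per gene symbol, without normalization, and strand settings are not given in the sources used here. Positions and exon lengths came from GENCODE M21 (mm10), where 54510 of 55376 symbols and all 7 members were found, and promoter windows were found for 6 members.

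Counts were filtered with filterByExpr, TMM-normalized and fitted with the edgeR 4.0.16 quasi-likelihood test (R 4.3.3) in a single model of the 19 libraries with a mean for every group and nothing else. Calls needed a Benjamini-Hochberg adjusted p under 0.05 over all genes and a fold change over 1.5, and for the interaction the adjusted p alone. The study used DESeq2 with these thresholds and states more OWT and YKO samples than the 19 libraries hold. The name of its linked code also includes RUV (removal of unwanted variation) and pairwise. As an alternative DESeq2 (1.42.0) was run here in a single model of all groups without RUV, so it does not repeat the study's procedure. On simulated data for OKO vs YKO with 31822 genes, the procedure recovered 78 of 95 genes changed by 2 and 9 of 105 changed by 1 on the log2 scale, with 4 false calls. The changed genes were drawn from those with a mean of at least 1 CPM. The 7 members and the gene lists were chosen with earlier results of these data known. Each member was described, lists were given by counts and medians with called genes by name, up to 4 per list and comparison, or else up to the 2 with the largest change, of which the text gives a selection. The 3 most similar genes per member were named, except for 1 that is not reported here.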

Additional observations from a re-analysis of the deposited data

Results flagged for a closer look

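Of 28 sets of values (7 genes in 4 groups), 3 had 1 library well apart from the rest of its set, and chance alone flags about 1 in 20 sets, or 1.4 here. Cdkn2b in OKO7 was at 2.25 CPM, on 112 reads, far above the other 6 OKO libraries. Cdkn2b in OWT4 was at 0.369 CPM, on 22 reads, above the other 3 OWT libraries. Cdkn2d in YKO2 was at 41.9 CPM, below the other 3 YKO libraries, which had 53.4 to 53.9 CPM. Without OKO7 the log2 fold change of Cdkn2b in OKO vs YKO was -0.70 in place of 0.42, in OKO vs OWT 0.29 in place of 1.41, and in the interaction 1.37 in place of 2.48. Why these libraries stood apart was not tested.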

How the results depend on the processing

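No member was called by edgeR, and the count of members called was 1 in place of 0 in 4 alternatives: Cdkn1a in OKO vs YKO with DESeq2, upper-quartile factors and the filter at a mean CPM of 5, and Cdkn2d in OKO vs OWT with the OKO libraries without the title prefix. In the other alternatives, including each fit without 1 library, it was 0 in every comparison. Of 1125 recomputed log2 fold changes of members, 1048 kept direction and side of the threshold and 73 changed sign, none of them past the threshold. This tally overstates stability, since calls by the adjusted p alone reuse the reported log2 fold changes. Fits without 1 library also count comparisons in which that library has no part. Fits with only the OKO libraries that lack the prefix gave for OKO vs OWT -0.16 for Cdkn1a, -0.17 for Cdkn2c and -0.28 for Cdkn2b, and for OKO vs YKO 0.15 for Cdkn2a, -1.23 for Cdkn2b and -0.52 for Cdkn2d. With the prefixed OKO libraries alone Cdkn2d had 0.070 in OKO vs OWT, and the interaction was 0.16 for Cdkn1a and 0.23 for Cdkn2d. With the title prefix as a covariate, which OKO alone sets, Cdkn2d had -0.80 in OWT vs YWT, -0.59 in OKO vs YKO, 0.042 in OKO vs OWT and 0.21 in the interaction, Cdkn2a 0.087 and Cdkn2b -1.30 in OKO vs YKO, and Cdkn1a 0.15 in the interaction. Without OKO1, OKO2, OKO3, YWT4 and YKO2, chosen after seeing the data, Cdkn2d had 0.052 in OKO vs OWT, and the interaction was 0.052 for Cdkn1a and 0.13 for Cdkn2d. By the library total in place of TMM, also chosen after seeing the data, Cdkn1b had 0.024 in OKO vs YKO and 0.097 in OKO vs OWT, Cdkn2a had 0.11 in OKO vs YKO, and the interaction was 0.27 for Cdkn1a, 0.16 for Cdkn1c, 0.088 for Cdkn2c and 0.15 for Cdkn2d. With the mean CPM filter Cdkn1b had 0.063 in OKO vs OWT and the interaction was 0.23 for Cdkn1a, 0.11 for Cdkn1c, 0.086 for Cdkn2c and 0.13 for Cdkn2d. With upper-quartile factors these 5 were 0.017, 0.14, 0.0084, 0.0066 and 0.038. The interaction of Cdkn1a was 0.037 with DESeq2, 0.041 with RLE factors and 0.024 with no filter. Y-linked reads as a covariate and the Cdkn1c sum with Gm44732, chosen after seeing the data, changed no sign. For these reversals the cause was not tested.

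Fits without 1 library each gave, for OWT vs YWT, -0.033 to 0.21 for Cdkn1b, -1.61 to 0.24 for Cdkn2a, -0.15 to 0.016 for Cdkn2c and -0.065 to 0.32 for Cdkn2d; for YKO vs YWT, -0.69 to 1.07 for Cdkn2a; for OKO vs YKO, -0.55 to 0.12 for Cdkn2a, -0.70 to 0.72 for Cdkn2b and -0.12 to 0.15 for Cdkn2d; for OKO vs OWT, -0.013 to 0.35 for Cdkn1a and -0.12 to 0.17 for Cdkn2c; and for the interaction, -0.19 to 0.17 for Cdkn1a, -0.43 to 0.16 for Cdkn1c, -0.53 to 1.35 for Cdkn2a and -0.31 to 0.16 for Cdkn2d. Cdkn2a turned in OWT vs YWT and in YKO vs YWT without YWT2, which held 22 of its reads, and Cdkn2b in OKO vs YKO without OKO7. YWT2 also held 74 reads of Cdkn2b and had the lowest TMM factor, 0.692. Its plasma cell markers summed to 27068 CPM, against 1333 to 1972 CPM in the other YWT libraries. Whether this bears on Cdkn2a or Cdkn2b was not tested.

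Replicate numbers 1 to 4 were shared between groups, but libraries with the same number did not deviate together (r from -0.45 to 0.28). Of the 19 libraries 0 were closest to their own number in another group. OKO5, OKO6 and OKO7 could not be, since no other group holds their numbers. With the replicate block 0 members were called, and Cdkn2a had 0.089 in YKO vs YWT. For OKO vs YKO Cdkn2a had 0.052, Cdkn2b -1.43 and Cdkn2d -0.33, while for OKO vs OWT Cdkn1a had -0.081, Cdkn2b -0.35 and Cdkn2c -0.22. In that fit OKO rests on OKO1 to OKO4. For the OKO comparisons the block therefore cannot be told apart from leaving out OKO5 to OKO7. The count over all genes, 1 as reported in OWT vs YWT, ran from 0 to 132 over the alternatives, that of 9 in YKO vs YWT from 5 to 142, that of 434 in OKO vs YKO from 39 to 6420, that of 11 in OKO vs OWT from 0 to 4350, and that of 0 in the interaction up to 163. The study's table of sexes disagreed with the Y-linked reads in 3 libraries, and the fit with it, without OWT, called 0 members. Depth limits Cdkn2a and Cdkn2b, and in simulation 9 of 105 genes changed by 1 on the log2 scale were recovered. That simulation changed only genes with a mean of at least 1 CPM and held no differences between title sets. Its recovery therefore does not cover Cdkn2a and Cdkn2b, whose group means lay below 1 CPM.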
